A study of Mus musculus with 18 samples.

Results

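The genes described here are 37 genes of the cell division cycle, measured in whole liver of adult male CD-1 mice, an outbred strain. They were taken by name from the gene name column of the array scanner files, with the brightest probe (the highest mean over all arrays) standing for each gene. Of the 37 genes, 36 were found under their own name, and 29 of these entered the table of 17269 genes that was tested. Spc25 was found under its older name Spbc25 through its accession and is described beside the others, outside those counts. The genes fall into 7 roles: 10 of replication licensing and the replication fork, 4 of deoxynucleotide supply, 6 cyclins, 2 chromosome proteins, 8 mitotic kinases, checkpoint and kinetochore proteins, 2 of the anaphase-promoting complex and 5 spindle motors and microtubule proteins.

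As background, most hepatocytes of an adult liver rest outside the cell cycle and return to it after injury or partial removal of the liver. Entry into the cycle runs through cyclin D1 and the E2F transcription factors, which switch on genes for the replication machinery. A later wave of genes, read during G2 and mitosis, encodes the spindle, the kinetochore, the mitotic kinases and the anaphase-promoting complex. In bulk liver a low level of these transcripts can come from hepatocytes or from any other resident or passing cell, and fewer dividing cells cannot be told apart from less transcript per cell.

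The study asked how bisphenol A, a plasticiser monomer with weak oestrogenic activity, given in food at either of 2 doses, affects the liver transcriptome. All mice ate the same powdered diet from 5 weeks of age for 28 days, with bisphenol A mixed in to give average exposures of 0 (control), 50 µg/kg/day (low dose) or 5000 µg/kg/day (high dose), and were 9 weeks old at the end. Each group held 6 mice, each hybridised to its own 1-colour Agilent array, so 18 arrays in all. Exposure was calculated from an assumed food intake. No genetic change was made in any group.

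The promoters of 30 of the 37 genes were matched by symbol in the RefSeq promoter table (GRCm38.p6), which gives 250 bases before and 50 after each start. Ccna2, Ccnd1, Ccne2, Mcm4, Aurkb, Kif20a and Tpx2 had no entry. 4 promoters are shown because the values below turn on these genes, which include genes of both waves of the cycle. Capitals mark 3 kinds of letters searched on both strands: E2F letters (TTTCCCGC, TTTGGCGC or TTTCGCGC), the cell cycle homology region of G2 and mitosis genes (CHR; TTTGAA or TTTAAA), and the CCAAT box (CCAAT). Matches to different motifs can overlap, as the E2F letters and the CCAAT box do in Mcm7, and 2 E2F matches on opposite strands overlap in Mcm5. The Mki67 promoter lies on the minus strand at chr7:135716330-135716629, that of Spc25 on the minus strand at chr2:69206164-69206463, that of Mcm5 on the plus strand at chr8:75109259-75109558, and that of Mcm7 (the listed start with E2F letters) on the minus strand at chr5:138171834-138172133.
Mki67: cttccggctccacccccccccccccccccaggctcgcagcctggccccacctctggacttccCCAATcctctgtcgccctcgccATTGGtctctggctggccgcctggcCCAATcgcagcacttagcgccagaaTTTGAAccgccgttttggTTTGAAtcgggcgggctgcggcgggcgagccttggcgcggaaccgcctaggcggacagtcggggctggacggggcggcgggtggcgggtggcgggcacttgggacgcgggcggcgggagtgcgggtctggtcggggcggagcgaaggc
Spc25: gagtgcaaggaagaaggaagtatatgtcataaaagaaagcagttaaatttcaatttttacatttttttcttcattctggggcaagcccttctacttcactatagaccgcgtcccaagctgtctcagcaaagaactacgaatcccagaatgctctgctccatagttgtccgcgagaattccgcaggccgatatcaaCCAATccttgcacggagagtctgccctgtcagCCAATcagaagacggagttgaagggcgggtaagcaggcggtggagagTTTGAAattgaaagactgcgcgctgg
Mcm5: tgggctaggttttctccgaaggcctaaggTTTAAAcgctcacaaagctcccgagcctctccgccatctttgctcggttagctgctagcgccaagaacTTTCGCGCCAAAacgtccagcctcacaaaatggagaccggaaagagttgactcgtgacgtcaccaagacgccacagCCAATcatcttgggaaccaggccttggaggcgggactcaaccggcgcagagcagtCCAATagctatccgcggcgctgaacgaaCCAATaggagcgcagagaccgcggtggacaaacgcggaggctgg
Mcm7: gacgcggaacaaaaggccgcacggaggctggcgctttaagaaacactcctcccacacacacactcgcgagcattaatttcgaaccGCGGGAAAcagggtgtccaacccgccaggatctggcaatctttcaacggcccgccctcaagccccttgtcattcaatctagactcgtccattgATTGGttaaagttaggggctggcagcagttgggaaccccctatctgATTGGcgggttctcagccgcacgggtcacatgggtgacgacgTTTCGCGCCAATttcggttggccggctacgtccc

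Mki67 held 2 CHR matches and 3 CCAAT boxes and no E2F letters in this window, and Spc25 held 1 and 2 and none. Mcm5 held 2 E2F matches, 1 CHR match and 3 CCAAT boxes, and Mcm7 held 2 E2F matches, 3 CCAAT boxes and no CHR match. Over the members, E2F letters were present in 6 of 9 licensing and replication genes (Cdc6, Cdt1, Mcm3, Mcm5, Mcm6 and Mcm7) and in 0 of the 21 other matched genes. Over all 27025 genes of the promoter table the share was 2.12%. Both a CHR match and a CCAAT box in 1 promoter were present in 8 of 12 matched mitotic genes (kinases, checkpoint and kinetochore, anaphase-promoting complex, spindle), in 3 of 13 replication and deoxynucleotide genes, and in 12.2% of all genes. CHR letters alone were present in 30.6% and the CCAAT box alone in 41.1% of all genes. These matches are a description of the letters and no measure of factor binding.

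The depth of an array is given here by its brightness and by the share of probes above background. The 75th percentile of the signal, the value each array was scaled to, was 228 ± 42.5 intensity units in controls (mean ± SD, n = 6), 291 ± 43.7 in low-dose and 287 ± 34.6 in high-dose mice, so control arrays were dimmer on average. Between 55.1% and 62.5% of probes were well above background on each array. Arrays shared 5 slides, and 4 slides held controls. Hepatocyte markers, 9 of 10 measured (Serpina1a was not found by name), had summed levels of 9.87 to 10.4 in controls, 9.72 to 10.1 at the low dose and 9.78 to 10.1 at the high dose, on the log2 scale relative to the 75th percentile of the array that is used for every level below. The 4 highest sums were those of controls 4, 1, 3 and 6. At each dose 7 of the 9 hepatocyte markers had a mean below control, 3 of them at an unadjusted p of 0.05 and 0 past the adjusted threshold in limma, where 6.03% (low dose) and 3.3% (high dose) of all genes were lower at an unadjusted p of 0.05. The part of this shift in the dose comparisons below was not tested. High-dose mouse 2 stood apart: it had the highest summed cholangiocyte (6.54), Kupffer cell and macrophage (7.25) and neutrophil (5.77) markers and the lowest sinusoidal endothelium (4.07) and stellate cell (3.19) markers of the 18 mice. The next highest neutrophil sum was 2.65, in low-dose mouse 1. Values that this mouse moves are given below with and without it.

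Most proliferation genes were measurable. The brightest probe was well above background on 6 or more arrays for 28 of the 36 genes and on all 18 arrays for 26, and no probe was saturated. All 4 deoxynucleotide genes, both genes of the anaphase-promoting complex and 9 of 10 licensing and replication genes were among the 28. Of the spindle proteins 4 of 5 passed, of the kinases and checkpoint proteins found by name 4 of 7, of the cyclins 4 of 6 and of the chromosome proteins 1 of 2. Ccne2 (cyclin E2), Cdc6 (which loads the replicative helicase) and Kif11 (the motor that separates spindle poles) were well above background on no array. Aurkb (4 arrays), Bub1 (1), Bub1b (4), Ccnb1 (2) and Top2a (5) were between. The count per array was 26 to 31 in controls (median 27.5), 27 to 32 at the low dose (median 29) and 26 to 29 at the high dose (median 28), so the ranges overlapped.

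Top2a and Ccnb1 were seen on largely the same arrays, and the other dim mitotic genes partly on others. Aurkb was well above background in control 5, low-dose mice 1 and 5 and high-dose mouse 2. Bub1b was so in controls 1 and 3 and low-dose mice 1 and 3, and Bub1 in low-dose mouse 1 only. Top2a (DNA topoisomerase II alpha, which untangles sister chromatids) was well above background in controls 1 and 5, low-dose mice 1, 3 and 5 and no high-dose mouse. Its lowest, median and highest levels were -6.90, -6.09 and -3.93 in controls, -5.45, -5.07 and -3.78 at the low dose and -7.29, -6.27 and -5.00 at the high dose. With 0 of 6 high-dose arrays, 2 of 6 control arrays and 3 of 6 low-dose arrays above background, no fold is given. A second probe of Ccnb1 (cyclin B1, which drives entry into mitosis) entered the tested table with 6 arrays: controls 1 and 5, low-dose mice 1, 2, 3 and 5, and no high-dose mouse. Its highest level was -3.48 in controls, -3.78 in low-dose and -5.60 in high-dose mice, where all 6 values were at background and allow no fold.

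No proliferation gene passed an adjusted p of 0.05 in any comparison. In limma with Benjamini-Hochberg adjustment over all 17269 genes, the smallest adjusted p of the 29 genes was 0.241 at the low dose against control, 0.715 at the high dose against control and 0.298 at the high dose against the low dose. The background was low as well: 46 genes (0.266% of those tested) passed at the low dose, 0 (0%) at the high dose and 5 (0.029%) between the doses. At an unadjusted p of 0.05, 1963, 1152 and 1321 genes of the table passed in these comparisons. The p-values set each difference of means against the spread between mice within groups, pooled over the 3 groups and shrunk across genes by limma.

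At the low dose against control, 4 of 29 genes were higher and 2 lower at an unadjusted p of 0.05, where 5.33% of all genes were higher and 6.03% lower. The 4 were Mcm2, Mcm3, Mcm5 and Rrm2, and the 2 were Mcm7 and Tk1. The log2 fold change was above 0 for 19 genes and below for 10, with a median of 0.10 against -0.01 over all genes. At the high dose against control, 0 were higher and 1, Mcm7, was lower, where 3.37% of all genes were higher and 3.3% lower; 10 were above 0 and 19 below, with a median of -0.15 against 0.01 over all genes. At the high against the low dose, Tk1 was higher and Ccnd1, Mcm5 and Rrm2 were lower, where 3.78% of all genes were higher and 3.87% lower; 3 were above 0 and 26 below, with a median of -0.28 against 0.02. Both high-dose counts below 0 include Ccnb1, which entered the table through control and low-dose arrays only. Its high-dose values were all at background and allow no fold. The comparisons share groups, so they are not independent of each other. In no comparison did 2 groups fail to overlap for any of the 29 genes, where 1.63%, 0.295% and 0.457% of all genes did not overlap.

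The medians against control moved with the mice and arrays that entered. Without controls 1 and 5 (chosen after seeing the data) the low-dose median was 0.44 and the high-dose median 0.10, the latter of opposite sign. With position on the slide as a block it was 0.16 at the high dose, with the brightness of the array in the model it was 0.01, and with normexp background correction it was -0.18 at the low dose. The median of the high against the low dose stayed below 0 in all 37 alternatives, between -0.38 and -0.03. These left out low-dose mice only 1 at a time. Low-dose mice 1 and 5, which were high in mitotic genes (below), were not left out together, so dependence on this pair was not tested.

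**Figure D1:**
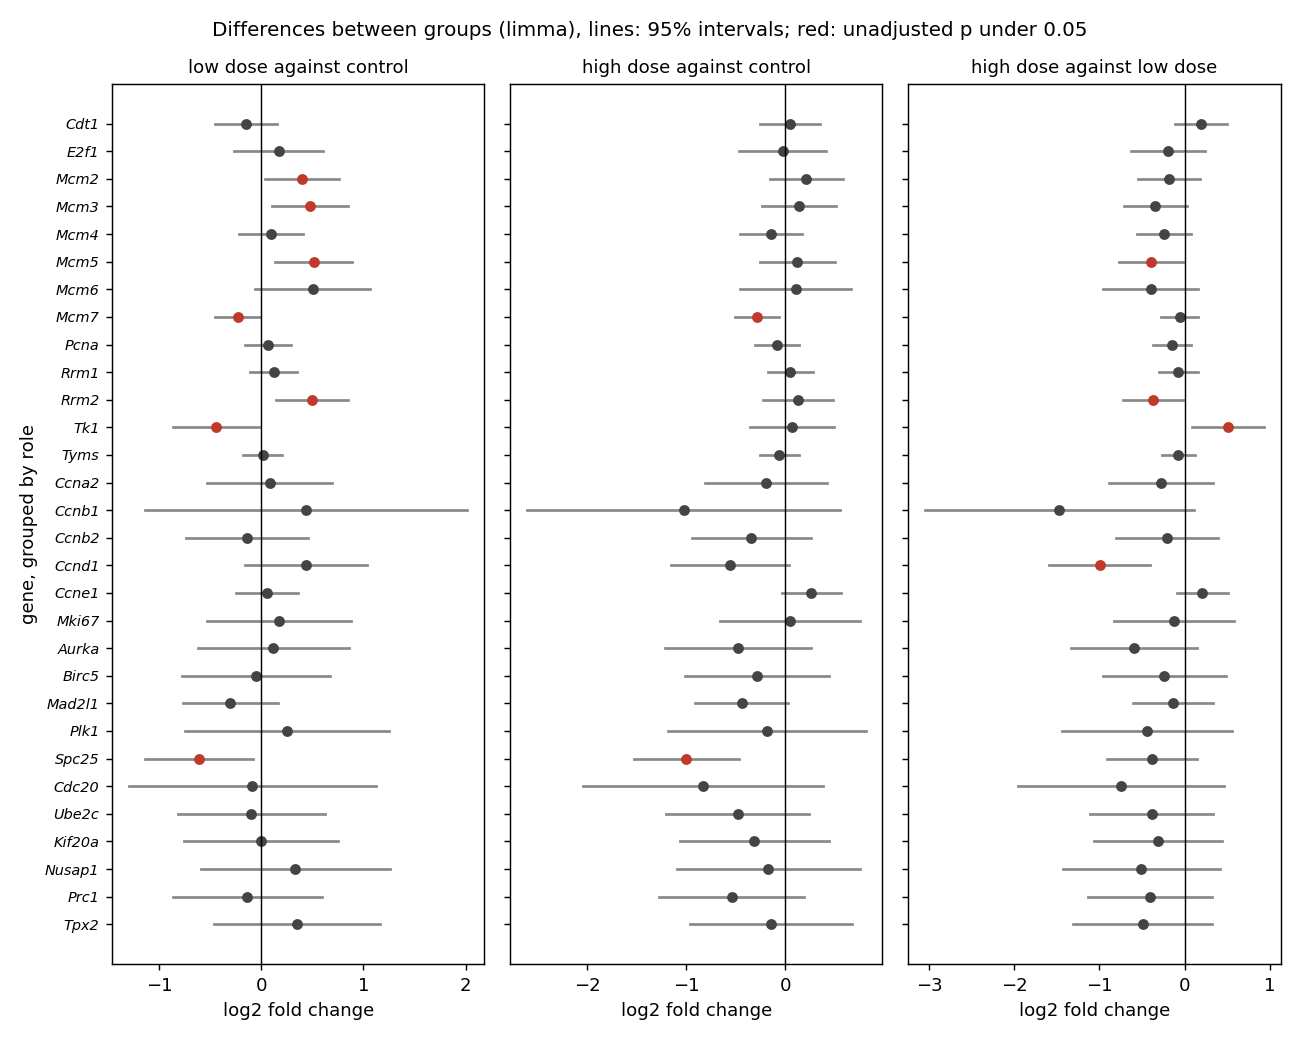
Log2 fold change of 30 proliferation genes (29 by their own name, and Spc25) in 3 comparisons, ordered by role, with the 95% interval of the limma fit; red points have an unadjusted p under 0.05. The intervals of most mitotic genes are wide, that of Cdc20 at the high dose against control runs from -2.04 to 0.37, and the values of Ccnb1 against the high dose rest on arrays at background.

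Among the licensing and replication genes, most of the 6 MCM subunits, which together form the replicative helicase, had higher means at the low dose, and Mcm7 had a lower one. Mcm5 had lowest, median and highest levels of -2.14, -1.91 and -1.21 in controls, -1.68, -1.16 and -0.84 at the low dose and -1.83, -1.59 and -1.45 at the high dose. The log2 fold change of Mcm5 was 0.51 (SE 0.18, limma adjusted p = 0.258) at the low dose and 0.12 (SE 0.18, adjusted p = 0.932) at the high dose against control, and -0.39 (SE 0.18, adjusted p = 0.630) between the doses. The 2 high controls were mice 1 and 5, at -1.21 and -1.24, and the other 4 controls lay below all low-dose mice. Mcm3 had lowest, median and highest levels of 0.11, 0.54 and 0.71 in controls, 0.49, 0.91 and 1.57 at the low dose and 0.39, 0.66 and 0.85 at the high dose. Its low-dose fold change was 0.48 (SE 0.18, limma adjusted p = 0.291), and a second probe of the gene gave 0.21 (limma adjusted p = 0.650). Low-dose mice 1, 3 and 5 carried the highest values of Mcm3, at 1.57, 1.05 and 1.42, and the other low-dose mice lay between 0.49 and 0.77. Mcm2 had lowest, median and highest levels of -2.53, -2.42 and -2.22 in controls, -2.49, -2.01 and -1.46 at the low dose and -2.57, -2.15 and -1.85 at the high dose. Its low-dose fold change was 0.40 (SE 0.17, limma adjusted p = 0.381), and this turned to -0.11 after normexp background correction. On single slides the low-dose difference from control was above 0 on 2 of 4 slides for Mcm2 and Mcm5 and on 3 of 4 for Mcm3.

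Mcm7 was the only MCM gene whose mean was below control at both doses. Its lowest, median and highest levels were 2.27, 2.52 and 2.65 in controls, 2.12, 2.26 and 2.36 at the low dose and 1.72, 2.28 and 2.38 at the high dose. Control 6, at 2.27, lay within the range of the low-dose mice and the other 5 controls above it, so the groups overlapped at both doses. The log2 fold change was -0.23 (SE 0.11, limma adjusted p = 0.411) at the low dose and -0.29 (SE 0.11, limma adjusted p = 0.715) at the high dose, and Mcm7 was lower than control on 4 of 4 slides at each dose, by 0.18 to 0.28 and by 0.12 to 0.77 in size. The low-dose value was 0.03 after normexp background correction, and the high-dose value kept its sign in all 37 alternatives (-0.36 to -0.19). High-dose mouse 2, at 1.72, was the lowest of all mice, and without it the high-dose value was -0.19. Pcna, the sliding clamp of the replication fork, was even across mice. Its lowest, median and highest levels were 2.10, 2.44 and 2.61 in controls, 2.36, 2.52 and 2.57 at the low dose and 2.14, 2.26 and 2.66 at the high dose. The fold changes of Pcna were 0.07 (SE 0.11, limma adjusted p = 0.878) at the low dose and -0.08 (SE 0.11, limma adjusted p = 0.911) at the high dose. The other 4 genes of this role that were measured, Cdt1, E2f1, Mcm4 and Mcm6, had low-dose values of -0.15 to 0.50, the highest for Mcm6, and high-dose values of -0.15 to 0.10.

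Of the deoxynucleotide genes, Rrm2 and Tk1 differed most in mean at the low dose, in opposite directions. Rrm2, the regulated subunit of ribonucleotide reductase, had lowest, median and highest levels of -3.15, -2.98 and -2.49 in controls, -2.75, -2.42 and -2.01 at the low dose and -3.07, -2.79 and -2.15 at the high dose. Its fold change was 0.50 (SE 0.17, limma adjusted p = 0.241) at the low dose, which turned to -0.20 after normexp background correction, 0.12 (SE 0.17, limma adjusted p = 0.921) at the high dose, and -0.38 (SE 0.17, limma adjusted p = 0.617) between the doses. Low-dose mice 6 and 5, at -2.01 and -2.14, and high-dose mouse 4, at -2.15, were the highest. Tk1, the salvage kinase that makes thymidine monophosphate, was tight in controls, with lowest, median and highest levels of 1.37, 1.45 and 1.51. At the low dose they were 0.37, 0.84 and 1.93 and at the high dose 1.12, 1.52 and 1.85. Of the low-dose mice 5 were below every control and mouse 2, at 1.93, was above every control. The fold change of Tk1 was -0.44 (SE 0.20, limma adjusted p = 0.403) at the low dose and 0.51 (SE 0.20, limma adjusted p = 0.543) between the doses. Rrm1, the large reductase subunit, and Tyms, thymidylate synthase, had fold changes against control of -0.06 to 0.12.

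Ccnd1 encodes cyclin D1, which links growth signals to cell cycle entry. It had the smallest p of the 29 genes between the doses. Its lowest, median and highest levels were -1.24, -0.41 and 0.19 in controls, -1.00, 0.13 and 0.51 at the low dose and -1.76, -0.96 and -0.60 at the high dose. Of the low-dose mice 5 lay above all high-dose mice, and mouse 4, at -1.00, lay among them. The log2 fold change between the doses was -0.99 (SE 0.28, limma adjusted p = 0.298), a 1.99-fold lower mean at the high dose. Against control it was 0.44 (SE 0.28, limma adjusted p = 0.610) at the low and -0.56 (SE 0.28, limma adjusted p = 0.767) at the high dose. The difference between the doses was below 0 on 4 of 5 slides (-2.15 to 0.25) and lay between -1.19 and -0.67 in all alternatives. The lowest value, -1.76, was that of high-dose mouse 2, without which the difference between the doses for Ccnd1 was -0.85, short of the threshold. The 4 other measured cyclins, Ccna2, Ccnb1, Ccnb2 and Ccne1, had no p under 0.05 in any comparison.

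Mki67 encodes Ki-67, which coats mitotic chromosomes and marks cycling cells. Its brightest probe had about the same mean in the 3 groups and a wide range in controls. This probe lies at chr7:135528251-135528310 (mm8), the positions given in the scanner files. A gene annotation of that build was not used here. In controls the 6 mice measured -0.91, -2.50, -2.07, -2.48, -0.72 and -2.71, at the low dose -1.23, -1.76, -1.68, -2.48, -1.20 and -2.01, and at the high dose -1.94, -1.07, -2.14, -1.95, -2.02 and -1.96, in mouse order. Controls 1 and 5, low-dose mice 1 and 5 and high-dose mouse 2 were the 5 highest, and the groups overlapped throughout. The log2 fold change was 0.17 (SE 0.34, limma adjusted p = 0.903) at the low dose and 0.05 (SE 0.34, limma adjusted p = 0.985) at the high dose. The 95% intervals, -0.53 to 0.88 and -0.66 to 0.76, leave room for a change of either sign. A second probe of Mki67 (r = 0.92 with the brightest) gave 0.74 (SE 0.38, limma adjusted p = 0.450) at the low dose. It gave 0.21 (limma adjusted p = 0.934) at the high dose and -0.53 (limma adjusted p = 0.819) between the doses. For the brightest probe, the sign of the high-dose value turned under 4 of 19 alternatives and on leaving out 4 of the 18 arrays in turn. High-dose mouse 2 was 1 of these arrays: without it the high-dose value of Mki67 against control was -0.11.

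Spc25, a subunit of the NDC80 complex that ties kinetochores to microtubules, had the smallest p of the listed genes against control. The 6 controls measured 1.45, 0.14, -0.04, 0.44, 0.76 and -0.28, the low-dose mice 0.06, -0.22, -0.0041, -0.48, -0.03 and -0.53, and the high-dose mice -0.38, -1.40, -0.53, -0.42, -0.35 and -0.46, in mouse order. All 6 high-dose mice lay below all 6 controls, though by a small margin (-0.28 against -0.35), while low-dose mice overlapped both groups. Of all genes 0.295% did not overlap between high dose and control. The log2 fold change was -1.00 (SE 0.25, limma adjusted p = 0.650) at the high dose and -0.61 (SE 0.25, limma adjusted p = 0.343) at the low dose, neither past the threshold. At the low dose Spc25 was lower than control on 4 of 4 slides, each holding 2 to 4 arrays. At the high dose the same count follows from the lack of overlap and adds nothing to it. All 37 alternatives gave a high-dose value between -1.14 and -0.65. Without high-dose mouse 2 it was -0.84, and without control 1, the highest and on the dimmest array, it was -0.79.

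The other mitotic genes had low means at the high dose within wide spreads. At the high dose all 4 measured kinase and checkpoint genes (Aurka, Birc5, Mad2l1 and Plk1) had fold changes below 0. So did both anaphase-promoting complex genes and all 4 spindle genes, and this held both against control and against the low dose. Over all genes, 51.8% were above 0 at the high dose against control and 55.4% against the low dose. Controls 1 and 5 were the 2 highest controls for all 10 genes. Without them the median over the 29 genes against control changed sign. Most of the 10 genes moved together across mice (below), so they are not 10 separate observations. Of the 10 brightest probes 0 had an unadjusted p under 0.05 in limma. The largest in size was Cdc20, the activator of the anaphase-promoting complex, at -0.83 (SE 0.57, limma adjusted p = 0.823) against control. Prc1, which bundles midzone microtubules, had -0.54 (SE 0.35, limma adjusted p = 0.802), and Mad2l1, the checkpoint protein that holds Cdc20 back, had -0.44 (SE 0.22, limma adjusted p = 0.766). A second probe of Mad2l1 (r = 0.62 with the brightest) gave -0.39 (limma adjusted p = 0.686) against control. Against the low dose it gave -0.46 (limma adjusted p = 0.514). Both had an unadjusted p under 0.05 in limma, and its low-dose value against control was 0.07. By the brightest probes, 4 of the 10 genes were above 0 and 6 below at the low dose, from -0.30 (Mad2l1) to 0.35 (Tpx2, which nucleates spindle microtubules). Nusap1 and Tpx2 were above background on 15 and 11 arrays. For Nusap1 these were 4 control, 6 low-dose and 5 high-dose arrays, and for Tpx2 they were 2, 5 and 4.

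**Figure D2:**
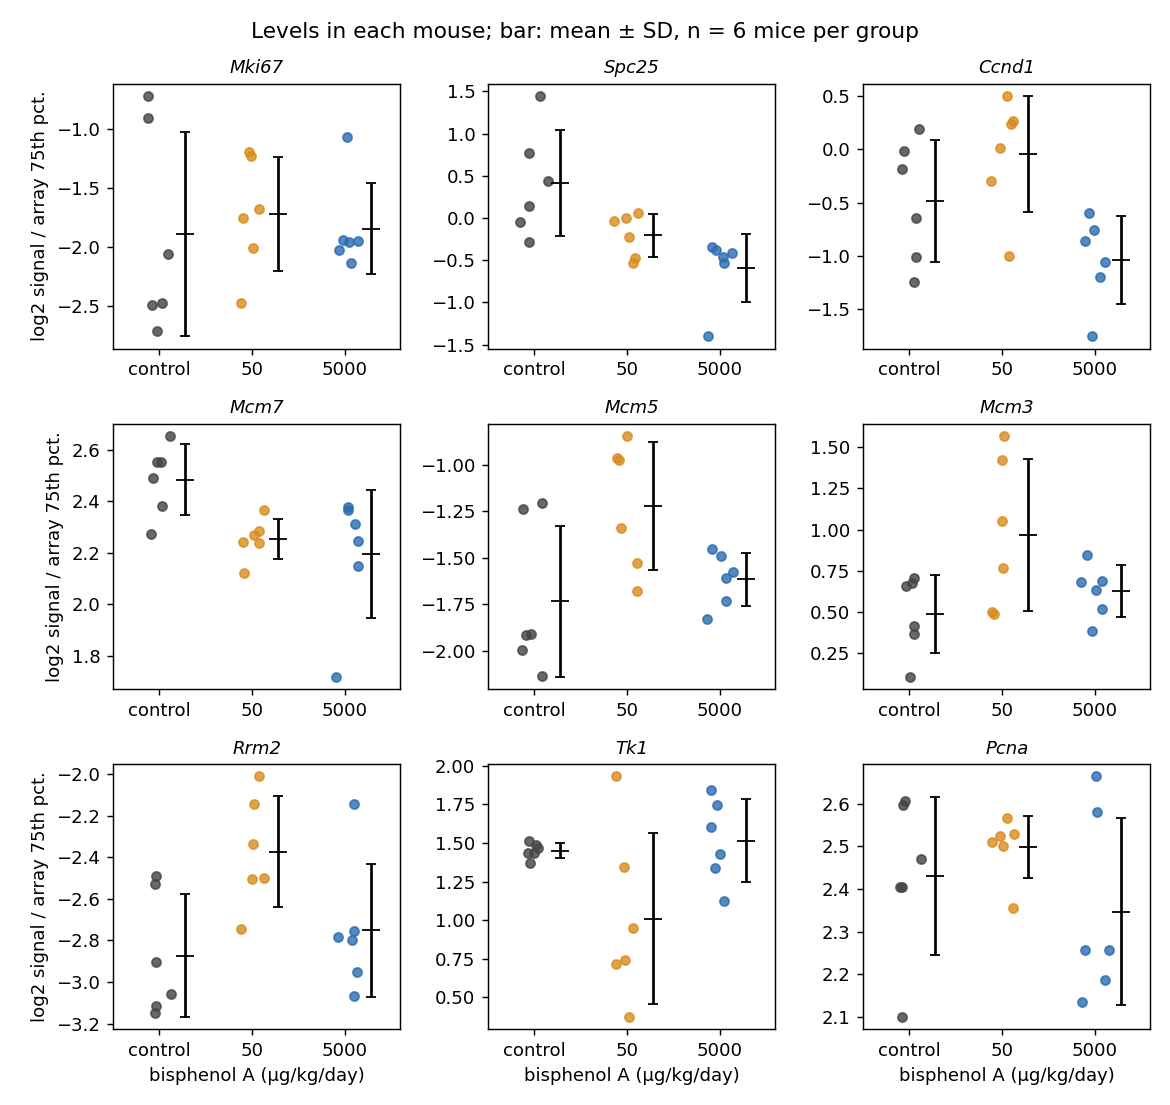
Level of 9 genes in each mouse (log2 of the signal relative to the 75th percentile of the array) by dose of bisphenol A, with the mean ± SD of 6 mice per group beside the points. Mki67 splits the controls into 2 mice at -0.91 and -0.72 and 4 at -2.07 or below. Spc25 is lower in all high-dose mice than in all controls, where 0.295% of all genes do not overlap. The other genes overlap between groups.

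The mice of 1 group differed much more in mitotic genes than in replication genes. The SD between mice, pooled over groups, had a median of 0.65 (range 0.40 to 1.06) over the 10 mitotic genes and of 0.29 (range 0.14 to 0.48) over the 13 replication and deoxynucleotide genes. The median over all genes was 0.29. Dim probes vary more, so each gene was also set against genes of similar mean level, in 10 classes of equal size: all 10 mitotic genes and 5 of 13 replication genes had an SD above the median of their class. Cdc20 was at percentile 97.5 of its class and had an SD of 1.29 in controls. In the mitotic genes the median SD was 0.83 in controls, 0.71 in low-dose and 0.41 in high-dose mice, and the high-dose SD was below the control SD for 9 of 10, the exception being Mad2l1. Over the 29 genes this held for 17 (58.6%), against 40.1% of all genes. Without high-dose mouse 2 the median high-dose SD of the mitotic genes was 0.34, and it was below the control SD for 10 of 10 mitotic genes and for 19 of 29 genes (65.5%), against 48.0% of all genes. Both counts over the 29 genes include Ccnb1, whose high-dose values were all at background. In replication genes the order differed, with median SDs of 0.19, 0.34 and 0.27.

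The spread of the 10 mitotic genes was not tested between groups; a test was run on Mki67, Ccnd1 and Pcna only, and none passed. For Mki67 the SD was 0.86 in controls, 0.48 in low-dose and 0.39 in high-dose mice, and 0.08 at the high dose without mouse 2. In a 2-sided exact permutation test of the mean absolute deviation from the group median, with 924 permutations, controls against high dose gave p = 0.175 for Mki67 and p = 0.247 for Ccnd1 (adjusted 0.555 over 9 tests). The smallest of the 9 was p = 0.0974, for Pcna in controls against the low dose (exact permutation test, adjusted 0.555). These tests were chosen after seeing the data.

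**Figure D3:**
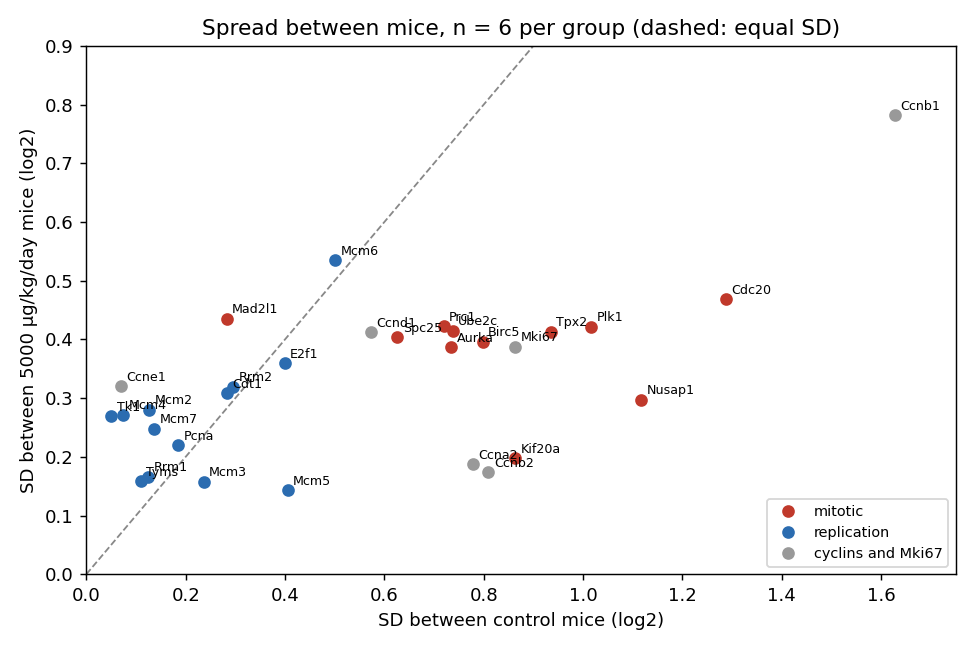
SD between mice at the high dose against SD between control mice for each gene (log2 units, n = 6 mice per group); the dashed line marks equal SD and the axes have different scales. Of the 10 mitotic genes with their own name 9 lie below the line, and Mad2l1 lies above it.

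The wide spread came from the same few mice. Controls 1 and 5 were the 2 highest controls for 10 of 10 mitotic genes. At the low dose mice 1 and 3 were among the 3 highest for 10 of 10 and mouse 5 for 9 of 10. All 6 high-dose mice lay below the second highest control for 10 of 10. This cut-off rests on the same 2 high controls, and the share over all genes was not computed, so nothing more is read from it. As the median difference from the control mean over the 10 mitotic genes, control 5 was at 1.15, low-dose mouse 1 at 0.93, low-dose mouse 5 at 0.93 and control 1 at 0.90, and the other 14 mice were between -0.75 and 0.16. The same mice were also seen through Top2a and Ccnb1, as described above. Over the 13 replication genes the median was 0.08 in control 5 and 0.0032 in control 1, against 0.30 and 0.35 in low-dose mice 1 and 5.

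Control 1 had the dimmest array (178 intensity units at the 75th percentile), control 5 had 226 and low-dose mouse 5 had 227, while low-dose mouse 1 had 348, nearly the brightest. Position 1 of a slide held controls 1, 4 and 5 and low-dose mouse 5, and control 4 had a mitotic median of -0.23. The part of position in the split was not tested.

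**Figure D4:**
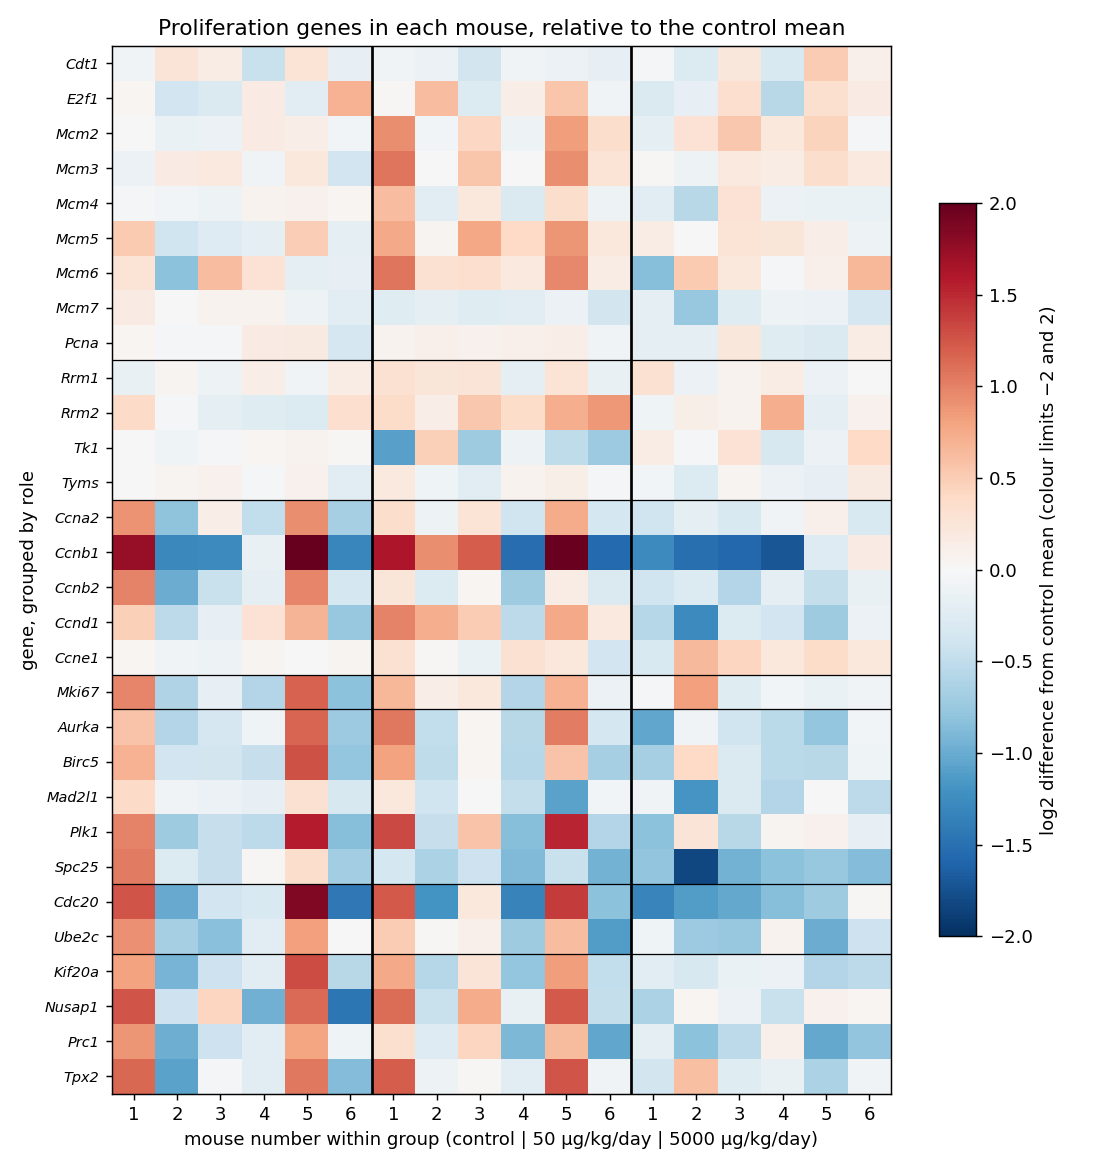
Level of 30 genes (rows, grouped by role) in each of 18 mice (columns, by group) as the log2 difference from the control mean; red is higher, blue lower, and colours stop at -2 and 2, beyond which some Ccnb1 values lie. Controls 1 and 5 and low-dose mice 1 and 5 are red across most mitotic genes, with blue cells for Mad2l1 in low-dose mouse 5 and for Spc25 in low-dose mice 1 and 5, while the replication genes in the upper rows are paler in those controls.

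Mitotic genes moved with Mki67 from mouse to mouse, and most replication genes did not. With group means removed, over 18 mice, 43 relations were computed with permutation tests of 100000 draws and Benjamini-Hochberg adjustment. Mki67 served as the x axis in place of Top2a, which was below the filter. The share of all genes that would pass such a relation was not computed, so the counts passing describe these lists only. Tpx2 had r = 0.92 (permutation p = 4e-05, adjusted 0.00043) and rho = 0.81 (permutation p = 0.00063, adjusted 0.00633). Birc5, survivin, had r = 0.92 (permutation p = 2e-05, adjusted 0.00043) and rho = 0.83 (permutation p = 0.00015, adjusted 0.00322). Tpx2 was above background on 11 of the 18 arrays, so part of its order rests on dim values. Of the 10 mitotic genes 9 passed on r, the exception being Mad2l1 (r = 0.10, permutation p = 0.658, adjusted 0.725), and cyclins A2 and B2 passed as well (r = 0.87 and 0.86). Cyclin B1 had r = 0.75, but 12 of its 18 values were at background and nothing is read from it. Of 13 replication genes 1 passed, Mcm5 (r = 0.69, permutation p = 0.0143, adjusted 0.0279; rho = 0.62, adjusted 0.0394). Ccnd1 did not pass on r (0.55, permutation p = 0.0431, adjusted 0.0772) and passed on rho (0.62, adjusted 0.0362).

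High-dose mouse 2 lowered several of these values. Without it, over 17 mice, the same 9 of 10 mitotic genes and Mcm5 among the replication genes passed on r, with a median r of 0.87 over the mitotic genes. Mad2l1, lowest of all mice in high-dose mouse 2 at -3.12, had r = 0.37 (permutation p = 0.154, adjusted 0.245). The median over the 13 replication genes was 0.29 in place of 0.10, from -0.16 (Tk1) to 0.79 (Mcm5). Ccnd1 passed on r without this mouse (0.80, permutation p = 0.00143, adjusted 0.00473).

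The values of r were lower without the extreme mice. Leaving out controls 5 and 1, the farthest from the median of Mki67, r was 0.87 for Tpx2, 0.87 for Birc5 and 0.47 for Mcm5, and ranged from -0.18 (Mad2l1) to 0.87 over the mitotic genes. Leaving out all 4 mice with high mitotic medians (controls 1 and 5, low-dose mice 1 and 5; chosen after seeing the data), r over the other 14 mice had a median of 0.39 over the 10 mitotic genes, from -0.41 (Mad2l1) to 0.74 (Tpx2). These 4 mice were chosen by medians over the same genes, which narrows the range left, so a lower r was fixed by the choice and nothing is read from it. With slide means removed r was 0.15 to 0.94 over the 10 genes. The array brightness itself had r = -0.26 with Mki67 (permutation p = 0.407, adjusted 0.552; rho = -0.08, permutation p = 0.786).

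Kupffer cell and macrophage markers, the resident macrophages of liver, also moved with Mki67. All 9 were measured and all 9 passed on r, from 0.68 (Timd4, permutation p = 0.00111) to 0.85 (Vsig4, permutation p = 0.00012), with adjusted p of 0.00043 to 0.00664, and rho was 0.60 to 0.80. Without controls 5 and 1 r was 0.64 to 0.80, without high-dose mouse 2 it was 0.62 to 0.83, and without the 4 mice with high mitotic medians it was 0.51 to 0.74. As for the members, the share of all genes that would pass was not computed. The summed marker level ran from 4.87 to 6.47 in controls, 5.17 to 6.63 at the low dose and 5.41 to 7.25 at the high dose, so the ranges overlapped, and 0 of 9 markers had an unadjusted p under 0.05 in limma between any groups. In high-dose mouse 2 the Kupffer markers were the highest of all mice (median difference from the control mean 1.49) and Mki67 was the highest of its group, while the 10 mitotic genes were at -0.19. Single markers of 5 other cell types did not pass on r: Cd79a of B cells (r = 0.20, adjusted 0.624 by permutation), Cd3e of T cells (-0.20, adjusted 0.553), S100a8 of neutrophils (0.39, adjusted 0.0772), Alas2 of erythroid precursors (-0.36, adjusted 0.232) and Alb of hepatocytes (-0.16, adjusted 0.699).

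The summed level of each of the 9 marker lists was also set against Mki67, chosen after seeing the data and adjusted over 9 relations. The Kupffer sum (r = 0.82, permutation p = 0.00029, adjusted 0.00261; rho = 0.68, adjusted 0.0264) and the B cell sum (r = 0.60, permutation p = 0.00251, adjusted 0.0113; rho = 0.73, adjusted 0.00513) passed, the latter over 4 of 7 markers measured and unlike Cd79a alone. Without controls 5 and 1 these were 0.78 and 0.63, and without high-dose mouse 2 they were 0.81 and 0.62. The sinusoidal endothelium sum did not pass over 18 mice (r = 0.41, permutation p = 0.0771, adjusted 0.139) and passed without high-dose mouse 2, the lowest of all mice (r = 0.68, permutation p = 0.00102, adjusted 0.00459). Without controls 5 and 1 it was 0.22. The endothelial sums of low-dose mouse 5 (5.54), control 5 (5.26) and control 1 (5.17) ranked 1, 2 and 4 of 18, and that of low-dose mouse 1 ranked 8. The sums of the other 6 lists had r of -0.37 (erythroid precursors) to 0.39 (cholangiocytes) and did not pass, with or without high-dose mouse 2. The part of macrophages, B cells and endothelium in the mitotic signal was not tested.

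**Figure D5:**
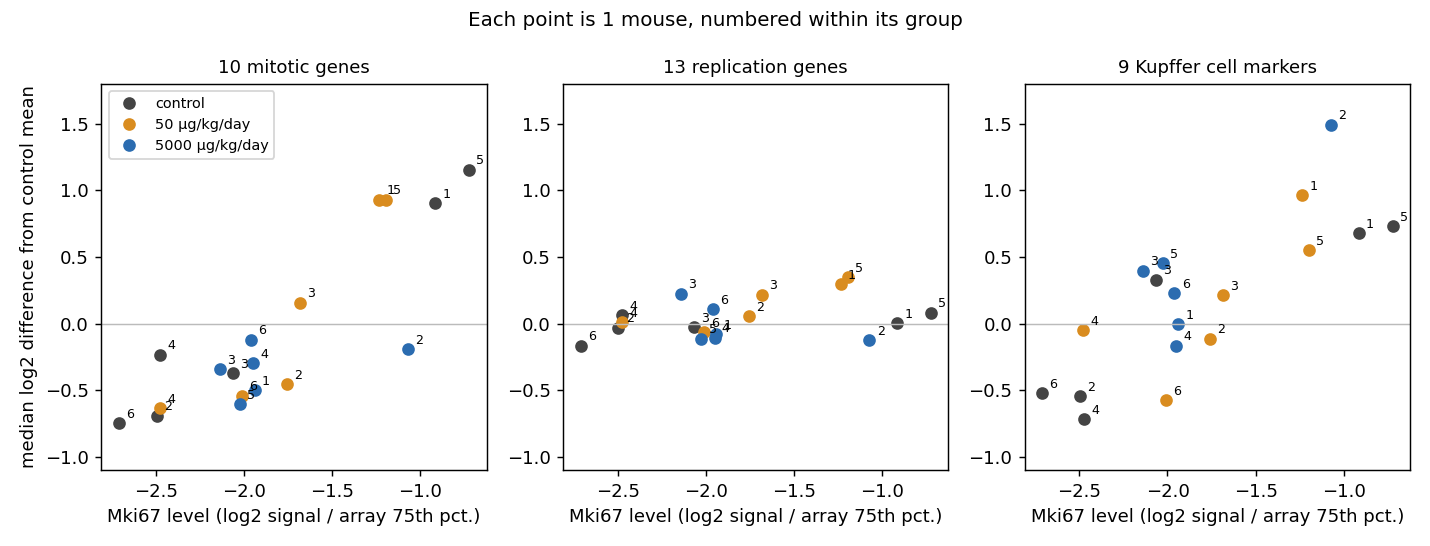
Median log2 difference from the control mean over 10 mitotic genes, 13 replication genes and 9 Kupffer cell markers (vertical axes) against the Mki67 level (horizontal axes), with 1 point per mouse numbered within its group. The mitotic and Kupffer medians are higher in the mice with high Mki67, the replication median stays between -0.17 and 0.35, and high-dose mouse 2 is high for Kupffer markers and not for mitotic genes.

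The 5 genes outside the members most like Mki67 across the 18 mice, by Pearson r with group means removed among 16770 genes and given as a description, were Cenpe (a kinetochore motor, 0.92), Arhgef39 (0.90), Angptl7 (0.89), Ly86 (0.88) and Tlr4 (0.88). Ly86 and Tlr4 encode proteins of lipopolysaccharide sensing. The cell source of these 5 transcripts was not tested.

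A wider list of 91 other genes of the cell cycle, 73 of them measured, gave the same count of calls, 0 in each comparison by limma. At an unadjusted p of 0.05, 3 were higher and 3 lower in low-dose mice and 2 and 7 in high-dose mice, against control, and 0 and 8 between the doses, where the shares over all genes were 5.33% and 6.03%, 3.37% and 3.3%, and 3.78% and 3.87%, with medians of 0.03, -0.09 and -0.15. The smallest p at the low dose was that of Pold1, the catalytic subunit of DNA polymerase delta (log2 fold change 0.57, SE 0.15, limma adjusted p = 0.109). It was followed by Rbl1 (0.43) and Rbl2 (-0.35), pocket proteins that restrain E2F, and the centrosomal kinase Nek2 (-0.44). At the high dose against control they were Nek2 (-0.53), Rbl1 (0.38), cyclin D2 (Ccnd2, -0.47) and the histone chaperone Asf1b (-0.36), all with a limma adjusted p of at least 0.679. Between the doses they were Dbf4, the activator of the kinase that fires replication origins (-0.74, limma adjusted p = 0.324), Cks1b (-0.36), E2f2 (-0.68) and the kinesin Kif18a (-0.92).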

How the data were processed

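RNA of whole liver from 18 mice was measured on 1-colour (Cy3) Agilent mouse arrays with 41174 probes, 6 arrays per group as the labels give them. The authors scanned the arrays and extracted intensities with Agilent Feature Extraction 9.5, per the file headers; the deposited intensity used here is the background-subtracted processed signal on a linear scale. The authors also deposited a table of log2 values of 22514 probes, used as an alternative only; its scale is log2, and the normalisation behind it is not given in the sources used here, beyond limma being named in the submitters' processing notes.

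Control spots and outlier spots were left out and spots of a probe averaged. The signal was put on the log2 scale and the 75th percentile of its array subtracted. Probes well above background on 6 or more arrays (25421) were kept, and the brightest probe of a gene used (17269 genes, 469 of them with a missing value on an array). Groups were compared with limma 3.58.1 in R 4.3.3 (lmFit and eBayes, all 18 arrays in 1 model, Benjamini-Hochberg over all genes, threshold 0.05); with 6 arrays per group their number limits the precision. The fit was tested on simulated data with known changes. Slides were read from shared scan batches. Symbols were updated through RefSeq accessions (23483 probes matched). Promoter letters came from RefSeq promoters; figures were drawn with matplotlib.

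The genes named in full were Mki67, Top2a, Ccnd1, Pcna and each member with an unadjusted p under 0.05 in any comparison. The members and lists were chosen with earlier results of these data known. Because Top2a was below the filter, Mki67 took its place in the relations across mice, the family of relations was widened, and marker sums and fits without high-dose mouse 2 were added; this was decided after seeing the data. Alternatives covered scaling, background correction, filters, probe choice, model terms, slide, position, replicate number and leaving out each array.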

Additional observations from a re-analysis of the deposited data

Results flagged for a closer look

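Values far from the other 5 mice of their group were found in 6 of 90 groups of 6 mice checked by Dixon's criterion, where chance gives about 1 in 20, so the number is near what chance gives. High-dose mouse 2 accounted for 3 of them. It had the highest Mki67 of its group, -1.07 (next -1.94), the lowest Mcm7, 1.72 (next 2.15), and the lowest Spc25, -1.40 (next -0.53). This is the mouse with the highest Kupffer, cholangiocyte and neutrophil markers. The other values were the lowest Pcna at the low dose, 2.36 in mouse 6, the highest Rrm2 at the high dose, -2.15 in mouse 4, and the lowest Cdt1 at the low dose, 0.27 in mouse 3.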

How the results depend on the processing

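No member passed the threshold under any of the 37 alternatives in any comparison, and the members' smallest limma adjusted p over all of them was 0.107 (array weights, low dose against control). In 1 case the members' median moved by more than its own SD between mice, 0.33. Without controls 1 and 5 (added after seeing the data) it was 0.44 in place of 0.10 at the low dose against control. Leaving out each array in turn gave 0.0085 to 0.26 there, -0.32 to -0.023 at the high dose against control and -0.38 to -0.19 between the doses. The median spread between mice, 0.48, was 0.27 in the deposited value table and 0.37 without controls 1 and 5, and 0.41 to 0.51 on leaving out each array.

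Of 1110 values of single described genes, 26 had the opposite sign, all for differences short of the threshold; the cause was not tested. With normexp background correction the low-dose values were Mki67 -0.24, Mcm2 -0.11, Mcm7 0.025 and Rrm2 -0.20. The high-dose values against control were then Mki67 -0.11, Pcna 0.036, Mcm2 -0.030, Mcm5 -0.018 and Rrm2 -0.077, and those between the doses Mki67 0.13, Mcm2 0.076 and Rrm2 0.12. At the high dose against control Mki67 was -0.017 with the array median as scale, -0.059 with array weights and -0.058 with slide as a block, Tk1 was -0.0024 with the array median, and Pcna was 0.0088 with brightness as a covariate and 0.0052 with position as a block. Between the doses Mki67 was 0.072 with position as a block and Mcm7 0.033 with array weights. Leaving out each array gave Mki67 -0.11 to 0.28 and Tk1 -0.0023 to 0.14 at the high dose against control, and Mcm7 -0.095 to 0.036 between the doses.

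Counts over all genes depended far more on the processing. At the low dose against control, 46 genes passed, against 0 with brightness as a covariate, 2 with slide as a block, 3 with position as a block, 13 with normexp, 129 with array weights, and 2 to 89 on leaving out each array. Between the doses it was 5, with 0 to 14 over the alternatives and 1 to 10 on leaving out each array. At the high dose against control it was 0 throughout. The replicate numbers do not pair the mice: correlations of same-numbered mice ranged from -0.31 to 0.35. With replicate number as a block 0 members passed, and 5 genes passed at the low dose against control. The number of members above background on 6 or more arrays, 28, was 31 and 27 with minimums of 3 and 12 arrays and 36 with the weaker positive-and-significant flag. Dim members are limited by signal over background: 7 of 36 had no probe past the filter and were not tested.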
